A study of Komagataella phaffii with 13 samples.

Results

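The core autophagy genes ATG1, ATG2, ATG7, ATG8, ATG9 and ATG11 and the vacuolar protease gene PRB1 of Pichia pastoris (Komagataella phaffii) were followed through a fed-batch fermentation. The genes were those that the study's table of autophagy genes names ATG1, ATG2, ATG7, ATG8, ATG9, ATG11 or PRB1, and they make up 7 of the 5439 gene identifiers measured. Their levels and the differences between them come from the expression table alone. The curve fit and the gene pairs below were chosen with the study's own values in view. The study's authors drew up that table on these libraries, so a count over its genes is not independent evidence of a direction.

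The culture was strain GS115, which uses methanol at the full wild-type rate, carrying the phyA phytase of Aspergillus niger behind the AOX1 promoter with the alpha-factor secretion signal of Saccharomyces cerevisiae, so every library came from cells with that construct. There were 13 RNA-seq libraries. One, B_10, was taken 10 h into the yeast cell culture on glycerol. G_3 was taken 3 h into the glycerol feed phase, GM_2 was taken 2 h into the glycerol-methanol (GM) feed phase, and 10 libraries (M_12 to M_120) were taken every 12 h of the methanol induction phase. Each condition therefore had 1 library, and the methanol libraries were serial samples of the same fermentation rather than separate cultures. In the labels the yeast cell culture is a bench-scale batch, the strain number goes up by 1 from each methanol sample to the next, and the text on extraction refers to an animal tissue, so those fields were not relied on. AOX1, the methanol-inducible alcohol oxidase gene, followed the stage labels, at 11.3 FPKM in B_10, 38.2 in G_3, 928 in GM_2 and a median of 23727 over the methanol libraries. FPKM is fragments scaled to gene length and to a size for the library, so levels of genes of different length can be compared. The deposited values had the same median-of-ratios size factor in all 13 libraries. Such a scaling holds the median of all genes nearly level between libraries.

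One form of autophagy encloses cytoplasm or organelles in a double membrane that fuses with the vacuole, where the contents are broken down. In yeasts, the kinase Atg1 starts the process, Atg11 is the scaffold through which selective forms such as the removal of peroxisomes are started, Atg9 and Atg2 bring membrane and lipid to the growing structure, and Atg7 activates the ubiquitin-like protein Atg8 for attachment to its membrane. Proteinase B, encoded by PRB1, is a serine protease of the vacuole that matures other vacuolar hydrolases and degrades what autophagy delivers. Methylotrophic yeasts are known for the large peroxisomes that methanol growth requires and for their removal by autophagy when the carbon source changes. The study also discusses removal of peroxisomes by microautophagy, in which the vacuole itself folds inward.

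The depth on annotated genes, recovered from the steps between low FPKM values, was 23452889 to 42621781 fragments per library. A member rested on 1526 to 80903 fragments in a library, which gives a counting error of 0.352% to 2.56% of its value. These errors cover counting alone, and the variation between cultures was not measured. A difference between stages was therefore read by size, as at least 1 on the scale of log2(FPKM + 1), that is 2-fold, and over methanol induction it had to be reached in all 10 libraries. All 7 genes were among the 5100 identifiers kept by a minimum mean of 1 FPKM over the libraries. In the RefSeq annotation of the strain the coding spans of the 7 genes overlapped no other, although the nearest neighbour of ATG9 lay 8 bases away.

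**Figure D1:**
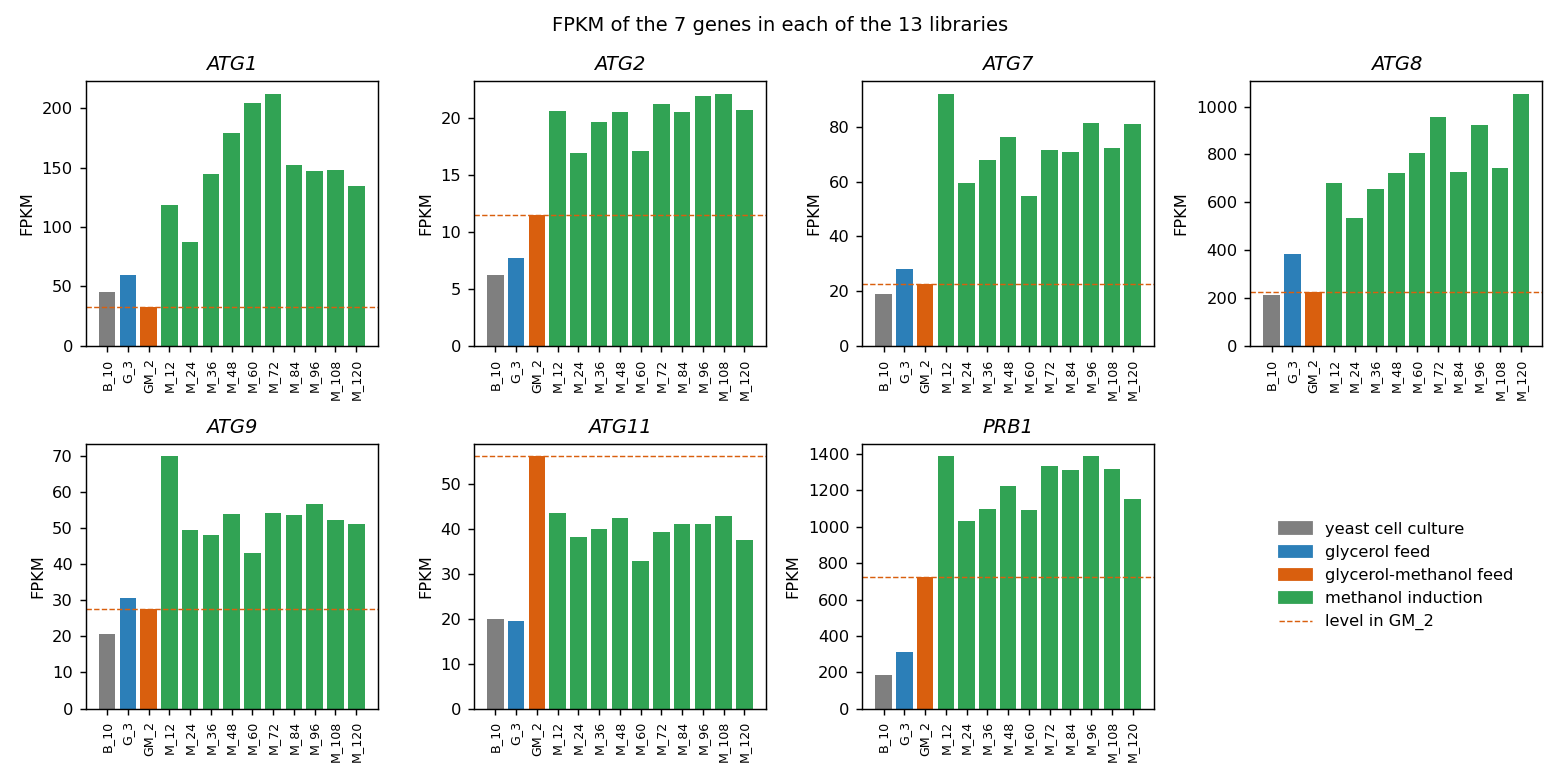
Level of each of the 7 genes in FPKM (vertical axis, from 0) in each of the 13 libraries (horizontal axis), with 1 bar a library coloured by stage and a dashed line at the level in GM_2. All 10 methanol bars stand above the line for every gene except ATG11, whose methanol bars, 32.9 to 43.6 FPKM, stand below it at 56.2.

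The comparison of the GM phase with methanol induction asked which of these genes were higher once methanol was the sole feed. ATG1, ATG7 and ATG8 were at least 2-fold higher than in GM_2 in all 10 methanol libraries, ATG2, ATG9 and PRB1 were higher in all 10 by less, and ATG11 was lower in all 10. This gives 3 of the 7 genes past 2-fold, against 4.39% of the 5100 genes tested, and none lower by as much, against 4.0%. The median difference was 0.91 for the 7 genes and −0.00071 for all genes tested.

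ATG1 (PAS_chr2-1_0641), the initiating kinase gene, stood at 45.7 FPKM in B_10, 59.7 in G_3 and 33.0 in GM_2. In methanol induction its lowest value was 87.2 at M_24, its median 147 and its highest 212 at M_72. GM_2 was thus the lowest of the 13 libraries for ATG1, and the lowest methanol value lay above all 3 earlier libraries. Its difference from GM_2 was 2.13 in the median (4.36-fold), from 1.37 at M_24 to 2.65 at M_72. It exceeded the differences of 98.5% of the genes tested.

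ATG11 (PAS_chr1-4_0555), the scaffold gene of selective autophagy, differed from ATG1 in the place of GM_2. Like ATG1, it was higher in all methanol libraries than in B_10 and G_3. It stood at 19.9 FPKM in B_10, 19.5 in G_3 and 56.2 in GM_2, with a 95% Poisson interval of 55.1 to 57.4 in GM_2. The methanol libraries ran from 32.9 at M_60 through a median of 40.6 to 43.6 at M_12. GM_2 was the highest of the 13 libraries, and the methanol libraries lay between it and the earlier pair without overlap. The methanol difference from GM_2 was −0.46 in the median, from −0.76 to −0.36, which is short of 2-fold in each library.

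ATG9 (PAS_chr4_0510) encodes the membrane protein whose vesicles seed the new compartment. It stood at 20.5 FPKM in B_10, 30.5 in G_3 and 27.6 in GM_2, and in methanol induction at 43.1 (M_60) to 69.8 (M_12) with a median of 53.0. Its difference from GM_2 was 0.91 in the median and reached 2-fold in 2 of the 10 libraries. ATG2 (PAS_chr1-3_0168), the lipid-transfer protein gene, had the lowest level of the 7 in every library. It stood at 6.20 FPKM in B_10, 7.69 in G_3, 11.5 in GM_2 and 16.9 (M_24) to 22.2 (M_108) in methanol induction, with a median of 20.6. Its difference from GM_2 was 0.79 in the median, from 0.52 to 0.89, so none of its methanol libraries reached 2-fold.

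ATG7 and ATG8 belong to the conjugation step. ATG7 (PAS_chr1-4_0310), encoding the E1-like activating enzyme, stood at 18.8 FPKM in B_10, 28.1 in G_3, 22.6 in GM_2 and 54.8 (M_60) to 92.2 (M_12) in methanol induction, with a median of 72.0. ATG8 (PAS_chr4_0704), encoding the membrane-bound ubiquitin-like protein, stood at 211 FPKM in B_10, 384 in G_3, 226 in GM_2 and 536 (M_24) to 1054 (M_120) in methanol induction, with a median of 734. Both had every methanol value above all 3 earlier libraries. The differences from GM_2 were 1.63 for ATG7 (1.24 to 1.98) and 1.70 for ATG8 (1.24 to 2.22), or 3.09-fold and 3.24-fold in the median.

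PRB1 (PAS_chr1-1_0226), the proteinase B gene, stood at 186 FPKM in B_10, 311 in G_3 and 726 in GM_2. Its methanol values ran from 1031 at M_24 through a median of 1268 to 1388 at both M_12 and M_96. Each stage lay above the one before it, and GM_2 was already 60.3% of the way, on the log2 scale, from G_3 to the methanol median. The remaining difference between GM_2 and methanol induction was 0.80 in the median, from 0.51 to 0.93, again short of 2-fold in each library.

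**Figure D2:**
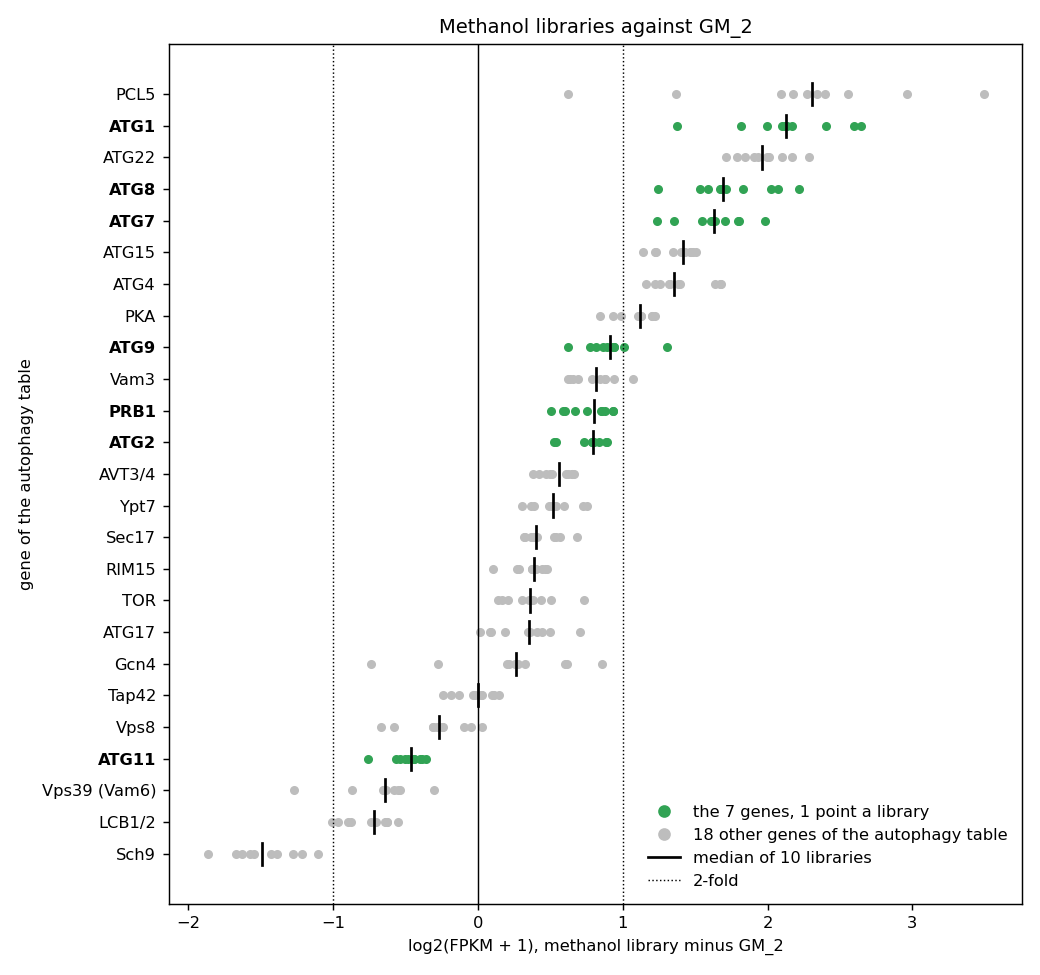
Difference of log2(FPKM + 1) between each methanol library and GM_2 (horizontal axis) for the 25 genes of the study's autophagy table (vertical axis, sorted by median). Each gene has 10 points, 1 a library, with a black bar at their median and dotted lines at 2-fold, and the points of ATG1, ATG7 and ATG8 lie wholly beyond the upper line while those of ATG11 lie between −0.76 and −0.36.

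The other 18 genes of the same table held 3 that were at least 2-fold higher than GM_2 in all 10 methanol libraries and 1 that was lower by as much, with a median difference of 0.39. The 3 were ATG22 (1.96), which encodes a vacuolar exporter of amino acids, ATG15 (1.42), the lipase gene of the autophagic bodies, and ATG4 (1.35), encoding the protease that processes Atg8. The lower gene was SCH9 (−1.49), encoding a kinase downstream of TOR complex 1, which stood at 187 FPKM in GM_2 and at 50.5 to 86.4 in methanol induction. ATG17, encoding the scaffold used in starvation-induced autophagy, differed by 0.35 in the median and reached 2-fold in none of the 10 libraries. PCL5, encoding a cyclin involved in the turnover of Gcn4, had the highest median of the table, 2.31, and was past 2-fold in 9 of 10 libraries, M_12 being the exception at 0.62.

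GM_2 was then set against the stages before it, with 1 library on each side. Against G_3, ATG11 and PRB1 were at least 2-fold higher in GM_2, by 1.49 and 1.22, while 6.71% of all genes were, and none of the 7 was 2-fold lower, against 5.24% of all genes. The other differences were 0.52 for ATG2, −0.14 for ATG9, −0.30 for ATG7, −0.76 for ATG8 and −0.83 for ATG1. ATG1 and ATG8 thus stood lower in GM_2 than in the glycerol feed and ATG11 and PRB1 higher, with medians of −0.14 for the 7 genes and 0.027 for all genes.

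Against B_10, the same pair, PRB1 (1.96) and ATG11 (1.45), was at least 2-fold higher in GM_2, beside 9.69% of all genes, and again none of the 7 was 2-fold lower, beside 7.02%. The differences of the others were 0.79 for ATG2, 0.41 for ATG9, 0.25 for ATG7, 0.098 for ATG8 and −0.46 for ATG1. Both comparisons use the GM_2 library, so its own error enters each of them and the comparison with methanol induction as well. In these bulk libraries a larger share of cells with a transcript and more transcript per cell cannot be told apart.

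The place of GM_2 among the 13 libraries differed between the genes. It was the lowest library for ATG1, as for 15.5% of all genes, and the highest for ATG11, as for 18.9%. Each of these places was taken by 1 member, no more than those shares of all genes would give. The lowest and the highest place therefore do not set the members apart from other genes. GM_2 lay between B_10 and G_3 for ATG7, ATG8 and ATG9, as for 17.8% of all genes. ATG2 and PRB1 took an intermediate level in GM_2, above both glycerol libraries and below all methanol libraries, which 11.2% of all genes did. All but ATG11 had every methanol library above the 3 earlier ones, a pattern shown by 20.3% of all genes. In the same table SCH9 was the other gene with its highest level in GM_2, and PKA, ATG4, ATG15, ATG22 and PCL5 shared with ATG1 a lowest level there.

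Pairs of genes were also compared inside each library, where the scaling between libraries enters only through the pseudocount. Both pairs were chosen with the study's own values for these genes in view. The place of GM_2 in them is therefore a description and not independent of that choice. ATG11 exceeded ATG1 in GM_2 by 0.75 on the log2(FPKM + 1) scale. In the other 12 libraries ATG11 lay below ATG1, by values from −2.60 at M_60 to −1.16 at B_10. The ratio of ATG11 to ATG1 in GM_2 was therefore 3.76-fold above that of the next library, B_10, and with pseudocounts of 5 and 0.1 it was 3.28-fold and 3.86-fold above the next, which was M_24 with 0.1. PRB1 exceeded ATG8 by 1.68 in GM_2 and by 0.13 (M_120) to 1.02 (M_12) in the methanol libraries, while it lay below ATG8 in B_10 (−0.18) and G_3 (−0.30). The order of levels changed accordingly, with ATG8 the most abundant transcript of the 7 in both glycerol libraries and PRB1 from GM_2 onwards. ATG7, ATG9 and ATG11 had neighbouring levels in B_10, at 18.8, 20.5 and 19.9 FPKM, and were apart in the methanol medians, at 72.0, 53.0 and 40.6.

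**Figure D3:**
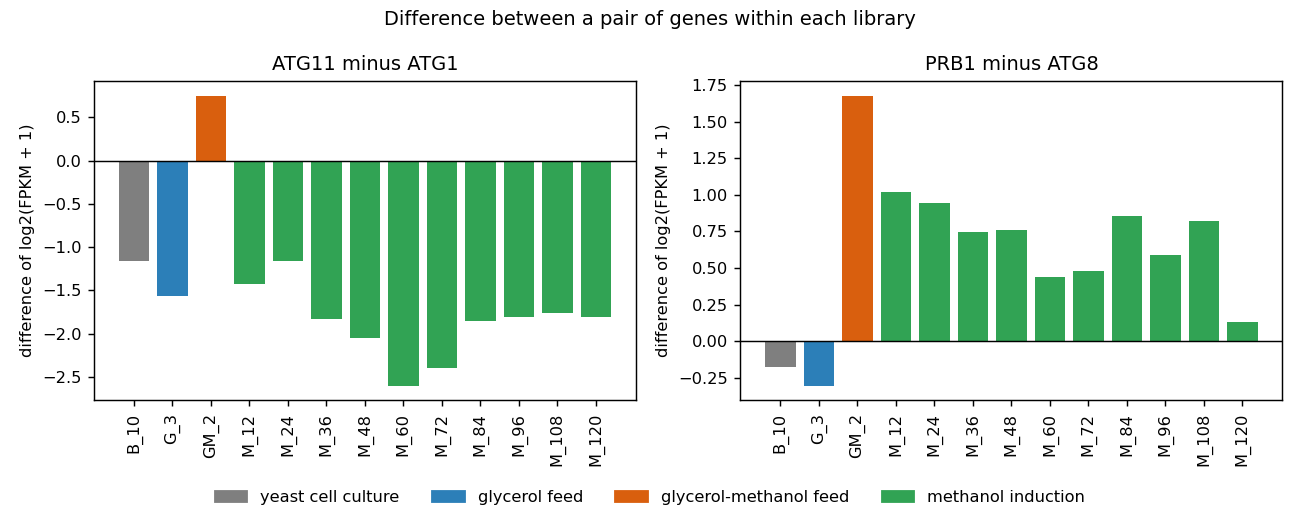
Difference of log2(FPKM + 1) between 2 genes of the same library (vertical axis) in each of the 13 libraries (horizontal axis), for ATG11 minus ATG1 on the left and PRB1 minus ATG8 on the right, with bars from 0 coloured by stage. The GM_2 bar is the only positive one on the left, at 0.75, and the tallest on the right, at 1.68. Both pairs were chosen with the study's own values in view.

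Before methanol was added, ATG1, ATG2, ATG7, ATG8, ATG9 and PRB1 stood higher in G_3 than in B_10, by 0.27 for ATG2 to 0.86 for ATG8, which 50.1% of all genes did in any size. None reached 2-fold, beside 2.47% of all genes. ATG8 and PRB1 showed the larger differences, 0.86 and 0.73. The difference of ATG11 was −0.030 as deposited and 0.10 after rescaling without the 20 largest genes, so its direction was not settled. That rescaling moved the median of all genes by 0.14 and the share of genes above B_10 to 66.2%.

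With the glycerol libraries as reference, all 7 genes were higher in every methanol library. By the median over the methanol libraries, a looser measure, 49.5% of all genes were higher than in B_10. Against G_3 it was 49.6%. Against B_10, ATG2, ATG7, ATG8, ATG9 and PRB1 were at least 2-fold higher in all 10, beside 8.61% of all genes, with medians from 1.32 for ATG9 to 2.76 for PRB1. ATG1 passed in 9 of 10 and ATG11 in 5 of 10, with medians of 1.67 and 0.99. Against G_3, ATG2 (1.31) and PRB1 (2.02) were past 2-fold in all 10, beside 5.82% of all genes, and the medians of the others ran from 0.78 for ATG9 to 1.33 for ATG7. None of the other 18 genes of the table was past 2-fold in all 10 libraries against B_10 or G_3. Against B_10, however, ATG4 (1.07), ATG15 (1.18) and AVT3/4 (1.07) were past it in 7 of 10 each. Of the 18 genes, 14 had a median above 0 against each reference. The count among these 18 was not examined after rescaling. The counts of members depend on the scaling and the pseudocount. Rescaling without the 20 largest genes added ATG1 against B_10 and ATG7 against G_3, and a pseudocount of 5 left 3 of 7 and 1 of 7.

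Within methanol induction the question was whether the levels changed with the hours of feeding. A line over the 10 time points was fitted to all 5100 genes in limma, with Benjamini-Hochberg adjustment, and called 249 rising (4.88%) and 143 falling (2.8%). None of the 7 genes was called. ATG8 came nearest, with a fitted change of 0.63 ± 0.19 (SE, 10 libraries) over the phase and an adjusted p of 0.0649 in limma. Its level went from 682 FPKM at M_12 to 1054 at M_120 with values of 725 at M_84 and 743 at M_108 between. The other 6 had limma adjusted p-values from 0.300 for ATG2 to 0.923 for ATG11, and the fitted change of ATG1 was 0.35 ± 0.32 (SE) with an adjusted p of 0.542. At an unadjusted p of 0.05 in limma, ATG8 was the sole gene of the 7 to pass. Of all 5100 genes, 709 rising and 588 falling passed, so this does not set the 7 genes apart. Among the 18 other genes of the table the line called TOR, the nutrient-sensing kinase gene, as rising (0.42, limma adjusted p = 0.0454) and LCB1/2, of sphingolipid synthesis, as falling (−0.43, limma adjusted p = 0.0211).

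A second fit allowed for curvature and was chosen with the study's fold changes in view. It called 673 genes (13.2%), none of the 7 among them. ATG1 had the lowest adjusted p of the 7 in limma, 0.0667, with its fitted maximum at 72 h. Its level went from 118.9 FPKM at M_12 and 87.2 at M_24 to 212 at M_72, and back to 152 at M_84 and 134.5 at M_120. ATG8 followed with a limma adjusted p of 0.0998, and at an unadjusted p of 0.05 both passed. So did 1778 of all 5100 genes, so passing there does not set the 7 genes apart. The curve called Gcn4 (limma adjusted p = 0.0375), PCL5 (0.0287) and LCB1/2 (0.0311) among the 18 other genes. With a single library at each hour, and libraries that follow each other in the same culture, these p-values measure scatter around the fitted line or curve and not variation between fermentations.

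The calls of 2 members depended on M_12. Without that library, ATG8 passed the line (0.75, limma adjusted p = 0.0490) and ATG1 passed the curve (limma adjusted p = 0.0453). Over the other alternatives run for each fit the 7 genes stayed uncalled, and with log2 hours only the line was fitted.

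**Figure D4:**
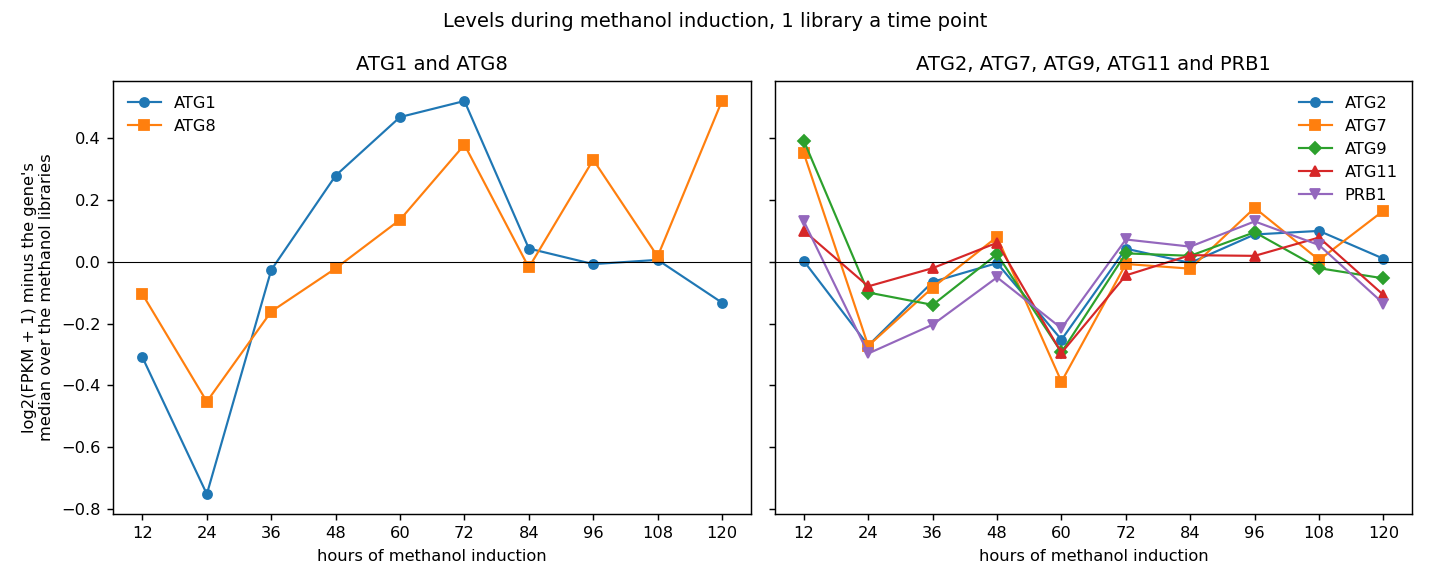
Level of each gene as log2(FPKM + 1) minus its own median over the methanol libraries (vertical axis) against hours of methanol induction (horizontal axis), with 1 point a library, for ATG1 and ATG8 on the left and the other 5 genes on the right. ATG1 has its maximum at 72 h, 212 FPKM, and the 5 genes on the right share a low value at 60 h.

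Several single time points stood out across the 7 genes. M_24 was below M_12 for all 7, by 0.18 for ATG11 to 0.62 for ATG7 in size, whereas 49.0% of all genes showed that direction. ATG7, ATG9, ATG11 and PRB1 had their highest methanol level in M_12, as 24.0% of all genes did. For PRB1 it was level with M_96, at 1388 FPKM in both. M_60 was below both of its neighbours, M_48 and M_72, for ATG2, ATG7, ATG9, ATG11 and PRB1, which 39.0% of all genes showed. ATG1 and ATG8 did not take part in that dip, with 204.6 FPKM for ATG1 at M_60 between 179.3 and 212. The highest methanol value exceeded the lowest by 2.43-fold for ATG1 and 1.97-fold for ATG8, and by 1.31-fold for ATG2 to 1.68-fold for ATG7 in the other 5. Each of these time points is 1 library, and a change in the culture and a trait of that library cannot be told apart.

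The genes whose levels followed the members most closely were sought among those named in the study's 4 gene tables, by Pearson's r of log2(FPKM + 1) over the 13 libraries. Such an r takes in the difference between the 10 methanol libraries and the 3 before them, so r over the methanol libraries is given beside it, as a description of libraries from the same culture. For ATG1 the nearest was ATG8 (r = 0.93 over 13 libraries, 0.57 over the 10). For ATG7 the nearest was the peroxisome gene PEX20 (0.98 and 0.79), just ahead of ATG9 (0.98 and 0.87). For ATG9 the nearest was ATG7, ahead of PBS2 (0.97 and 0.89). ATG2 stood nearest to CAT, the catalase gene of peroxisomes (0.99 and 0.78), and PRB1 to FLD, the formaldehyde dehydrogenase gene of methanol oxidation (0.99 and 0.89). ATG8 stood nearest to ATG15 (0.96 and 0.64). For ATG11 it was IRE1, the sensor gene of the unfolded protein response (0.98 and 0.93), ahead of MIT1, a transcription factor gene of methanol metabolism (0.96 and 0.39). Over all 4975 genes compared with a member, named or not, these nearest genes ranked from 2 (IRE1 for ATG11) to 20 (ATG8 for ATG1). ATG11 and ATG1 had an r of 0.29 over the 13 libraries and −0.25 over the 10 of methanol induction.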

How the data were processed

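The authors deposited 1 table of FPKM values per gene for 13 RNA-seq libraries, each prepared from total RNA. The labels' processing notes name HISAT2 2.0.5, while the counter, its strand setting, the genome build and the normalization across libraries were not given by any source used here. A gene length column was also deposited. The FPKM values gave the same median-of-ratios size factor in all 13 libraries, so the comparisons rest on that scaling. Only the identifiers and gene names were taken from the study's gene tables as input. The curve fit and the gene pairs were, however, chosen with the study's own values in view. The members and the lists were chosen with earlier results of these data known.

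FPKM were used as log2(FPKM + 1) after a filter on a mean of at least 1 FPKM. Stages were compared by size, at least 2-fold and, for methanol induction, in all 10 libraries; no p-value was computed from 1 library per stage. Lines (8 residual degrees of freedom) and quadratic curves (7) over the hours were fitted in limma 3.58.1 (R 4.3.3) with an intensity trend and Benjamini-Hochberg adjustment over 5100 genes, after a test on simulated data. Fragments were recovered from the values with RefSeq coding lengths for 5040 matched identifiers. Under 100 fragments, 17 (GM_2) to 44 (M_96) values per library were checked, and 82.4% to 97.7% came out whole to within 0.01. The divisor of each library was chosen to bring its low values near whole numbers, so these shares describe the fit and are not an independent check. That reference table holds no product names, so wider lists of autophagy and vacuolar genes that were to be drawn from it are not used here, and no sequence is shown. Genes named in the text are the 7 members, the genes of the autophagy table that passed a threshold or were extreme, and the named genes most alike each member with a mean of at least 10 FPKM. Alternatives were the pseudocounts 0.1 and 5, no filter or a mean of 10 FPKM, thresholds of 0.5 and 1.5, rescaling without the 20 largest genes, leaving out M_12, M_60 or M_120, a call in 8 of 10 libraries, limma without the trend or robust, and log2 hours.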

Additional observations from a re-analysis of the deposited data

Results flagged for a closer look

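ATG9 at M_12 stood apart from the other methanol libraries, at 69.8 FPKM against 43.1 to 56.7. The gap to the nearest library was 0.491 of the range over the 10 libraries, past Dixon's 95% limit. Of 27 series of 10 methanol values examined, it was the 1 past that limit, and chance passes about 1 in 20. Its 95% Poisson interval at M_12 was 68.0 to 71.7 FPKM. M_12 was also the highest methanol library for ATG7 and ATG11 and, level with M_96, for PRB1. The 2-fold count of ATG9 against GM_2, 2 of 10 libraries, includes M_12.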

How the results depend on the processing

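No difference of a member between GM_2 or methanol induction and another stage changed direction under the alternatives run, ATG11 staying below GM_2 in all 10 methanol libraries after rescaling (−0.72 to −0.14). For G_3 against B_10, whose alternatives (pseudocount and rescaling) were chosen after seeing the data, rescaling turned ATG11 from −0.030 to 0.10 and left 190 genes higher, against 126. The 3 members past 2-fold against GM_2 stayed 3 under both pseudocounts, both filters, rescaling and each left-out library. At a threshold of 0.5 the members higher than GM_2 in methanol induction became 6 of 7 and the genes higher and lower 583 and 672; at 1.5 they became 0 of 7, 93 and 57. GM_2 against G_3 gave 1010 genes higher, 902 lower and 2 members lower (ATG1 and ATG8) at 0.5, and 154, 104 and 0 members higher at 1.5. GM_2 against B_10 gave 1147 and 961 genes at 0.5, and 220 and 129 with 1 member higher (PRB1) at 1.5. A call in 8 of 10 libraries gave 353 genes higher and 332 lower than GM_2. A pseudocount of 5 left 3 members higher against B_10 and 1 against G_3. Rescaling left 154 genes lower in methanol induction than B_10, against 282, and moved the median of all genes by 0.090 against GM_2, 0.25 against B_10, 0.11 against G_3 and, for GM_2 against B_10, 0.16. It turned the line's 249 rising and 143 falling genes into 131 and 373. Without 1 of M_12, M_60 and M_120 the line called 107 to 335 rising and 38 to 255 falling and the curve 304 to 592, the lowest counts being those without M_120; the cause was not tested. The fitted change, uncalled throughout, turned sign for ATG7 (−0.065 rescaled, −0.00072 without M_120 to 0.39 without M_12, −0.047 with log2 hours), PRB1 (−0.030 rescaled), ATG9 (−0.13 to 0.15 over the left-out libraries, the latter without M_12) and ATG11 (−0.040 to 0.063, with 0.028 without M_120); the cause was not tested. No paired analysis was possible because each stage but methanol induction had 1 library. The depth did not limit the members, whose counting errors were at most 2.56%.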
